A study of Mus musculus with 9 samples.

Results

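The genes described here are 35 mouse genes of the unfolded protein response and the integrated stress response, of 22136 genes quantified. They were listed by gene name. They comprise 15 endoplasmic reticulum (ER) chaperones and folding enzymes, 6 genes of ER-associated degradation, 4 genes of the stress sensors and XBP1, 8 genes of the integrated stress response and 2 translocon genes. All 35 passed the filter on low counts and were among the 13178 genes tested.

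RNA was sequenced in bulk from cells positive for CD45, the pan-leukocyte surface marker, sorted from skin tumours. The tumours grew from YUMM 2.1 cells, a single mouse melanoma line, injected under the skin of immunocompetent C57BL/6J mice, and antibody was given once they measured 20 to 50 mm3. There were 3 libraries from tumours given anti-B7-H3, 3 from tumours given anti-PD1 and 3 from tumours given an isotype control IgG. B7-H3 is a surface protein of the B7 family and PD1 an inhibitory receptor of T cells. The age of the mice is not given in the labels used here, and no label says that the libraries of a group came from separate animals, so p-values measure the spread between these samples, which may be technical.

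Library totals ran from 14487012 to 31533106 estimated counts, so a floor of 3 counts lay between 0.0951 and 0.207 CPM (counts scaled to a common library size). Totals were 15091916 to 31533106 with anti-B7-H3, 24257522 to 30119530 with anti-PD1 and 14487012 to 20477257 with IgG. Pan-immune markers such as Ptprc summed to 7860 to 10100 CPM in every library, against at most 14.1 CPM for melanoma markers and at most 29.7 CPM for fibroblast markers. Tyr and Dct, defining melanocyte genes, were at 0 in every anti-B7-H3 and every IgG library. Anti-PD1 replicate 3 and IgG replicate 2 stood apart: 1248 and 1896 of the tested genes were at 0 in them, against 224 to 822 in the other 7 libraries. Results are therefore also given without both. In bulk RNA, fewer cells of a type and less RNA per cell cannot be told apart.

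When unfolded proteins build up in the ER, the sensors IRE1 (gene Ern1), PERK (gene Eif2ak3) and ATF6 signal to the nucleus: IRE1 splices the mRNA of the transcription factor XBP1, ATF6 is cut to free a transcription factor, and PERK phosphorylates the translation factor eIF2α. XBP1 and ATF6 raise chaperones and the machinery that sends misfolded proteins to the proteasome. Phosphorylated eIF2α, which is also the output of kinases that sense amino acid shortage, haem deficit and double-stranded RNA, slows translation in general while favouring ATF4, and this common path is called the integrated stress response. Cells that secrete much protein, such as plasma cells, depend on XBP1.

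ATF6 and XBP1 are known to act on chaperone genes through the ER stress response element, ERSE, which was itself described from promoters of such genes in human cells. The letters CCAAT, 9 free bases and then CCACG were searched on both strands, from 250 bases before to 50 bases after each gene's start in RefSeq (GRCm38.p6), a window of 300 bases. A window was on hand for 31 of the 35 genes, all but Manf, Hyou1, Derl1 and Atf6. ERSE matched in 9 of the 31 (29.0%), against 37 of all 27025 genes with a window (0.137%). Since the element was defined on genes of this kind, that difference is no independent finding. The matched sites follow, each written in the orientation in which it reads CCAAT first, with the fixed letters in capitals and the free bases in lower case.
Hspa5 (chr2:34772025-34772043, + strand): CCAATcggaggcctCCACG
Hsp90b1 (chr10:86705638-86705656, - strand): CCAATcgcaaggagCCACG
Hsp90b1 (chr10:86705533-86705551, + strand): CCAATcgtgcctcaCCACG
Calr (chr8:84847075-84847093, + strand): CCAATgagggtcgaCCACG
Canx (chr11:50325800-50325818, - strand): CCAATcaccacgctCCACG
Pdia6 (chr12:17266491-17266509, + strand): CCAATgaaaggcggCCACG
Creld2 (chr15:88819520-88819538, - strand): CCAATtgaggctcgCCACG
Dnajc3 (chr14:118937827-118937845, + strand): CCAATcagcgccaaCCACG
Syvn1 (chr19:6046532-6046550, + strand): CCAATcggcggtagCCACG
Derl3 (chr10:75893242-75893260, - strand): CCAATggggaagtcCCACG

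The matches began and ended between positions -212 and -26 relative to the start, upstream in all 9 genes, and the free bases between the fixed ends differed at every site. Hsp90b1 held a pair of matches and the other genes 1 each. Creld2, which gave the smallest p of all 35 genes, carried its match at -126 to -108 on the strand opposite to the gene. Its whole upstream stretch is shown for that context: 250 bases, chr15:88819396-88819645, + strand, RefSeq on GRCm38.p6, with the match in capitals as it reads on the gene's own strand.
Creld2 promoter: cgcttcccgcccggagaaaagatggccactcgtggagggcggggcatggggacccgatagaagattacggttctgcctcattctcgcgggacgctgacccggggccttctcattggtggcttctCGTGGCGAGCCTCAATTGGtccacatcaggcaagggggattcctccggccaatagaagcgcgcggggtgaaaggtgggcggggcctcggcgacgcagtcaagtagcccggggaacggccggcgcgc

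A shorter form, ERSE-II (the letters ATTGG, 1 free base and CCACG), matched in 2 of the 31 windows (6.45%), against 12 of 27025 genes (0.0444%). Its sites are shown for Dnajb11, an ER co-chaperone, and Herpud1, a scaffold of ER-associated degradation.
Dnajb11 (chr16:22857852-22857862, + strand): ATTGGcCCACG
Herpud1 (chr8:94386377-94386387, + strand): ATTGGgCCACG

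The UPR element bound by XBP1 (letters TGACGTGG) matched in 0 of 31 windows, against 193 of 27025 genes (0.714%). The C/EBP-ATF response element, CARE, through which ATF4 acts, was searched as TGATGNAA and matched in 4 of the 31 (12.9%), against 1219 of 27025 genes (4.51%). Its carriers were Asns, Chac1 and Trib3 of the integrated stress response, and Herpud1.
Asns (chr6:7693225-7693232, - strand): TGATGaAA
Chac1 (chr2:119351049-119351056, - strand): TGATGcAA
Herpud1 (chr8:94386317-94386324, - strand): TGATGcAA
Trib3 (chr2:152344039-152344046, + strand): TGATGtAA

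ERSE, ERSE-II and the reverse of the UPR element share the letters CCACG, but no match of one motif overlapped a match of another in these windows. A match describes letters in a window and not a bound site. The genes were chosen for their known part in these pathways, so the ERSE-II and CARE shares are no independent finding either.

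**Figure D1:**
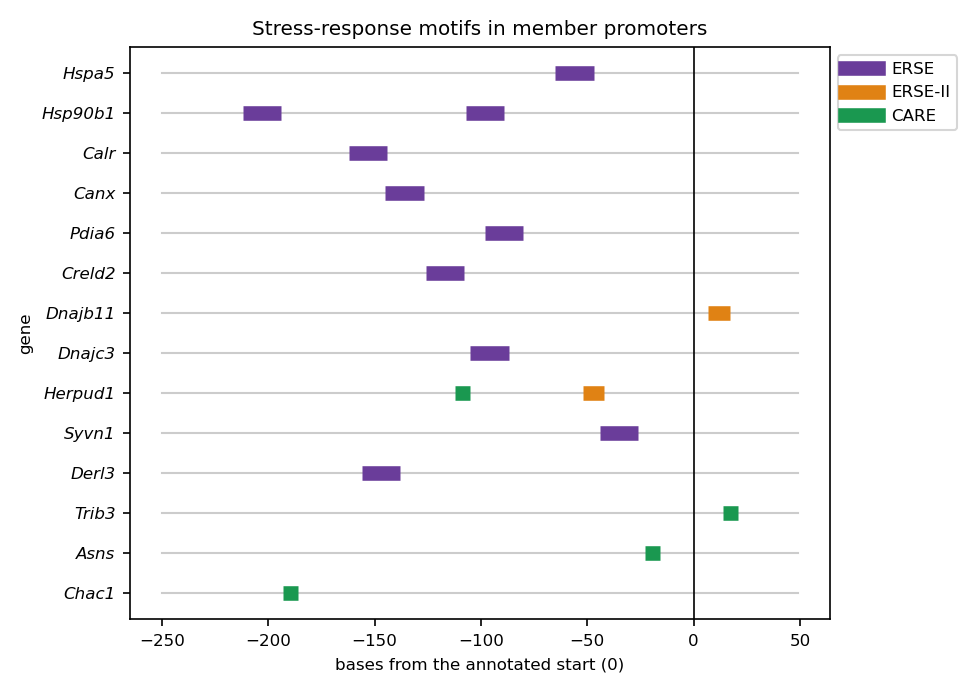
Positions of motif matches in the promoter windows of the 14 genes with any match, in bases from the annotated start (0). Each grey line is a window, purple blocks are ERSE, orange blocks ERSE-II and green blocks CARE. All ERSE matches lie upstream of the start, between -212 and -26.

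The 35 genes spanned a wide range of levels. Per coding length, Hspa5, which encodes the master ER chaperone BiP, was the most abundant, with a mean of 882 TPM (transcript abundance per length, scaled to a common total) over the 9 libraries, above 98.6% of the tested genes. The disulfide isomerase Pdia3 followed at 440 TPM, the lectin chaperone Calr at 358 TPM and the translocon subunit Sec61b at 296 TPM. At the low end stood Trib3 at 4.58 TPM, Gdf15 at 4.26 TPM and Chac1 at 1.64 TPM, all of the integrated stress response. The 3 sensors were also low, Ern1 at 12.8 TPM, Atf6 at 9.04 TPM and Eif2ak3 at 6.21 TPM. Low levels carry more counting error.

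**Figure D2:**
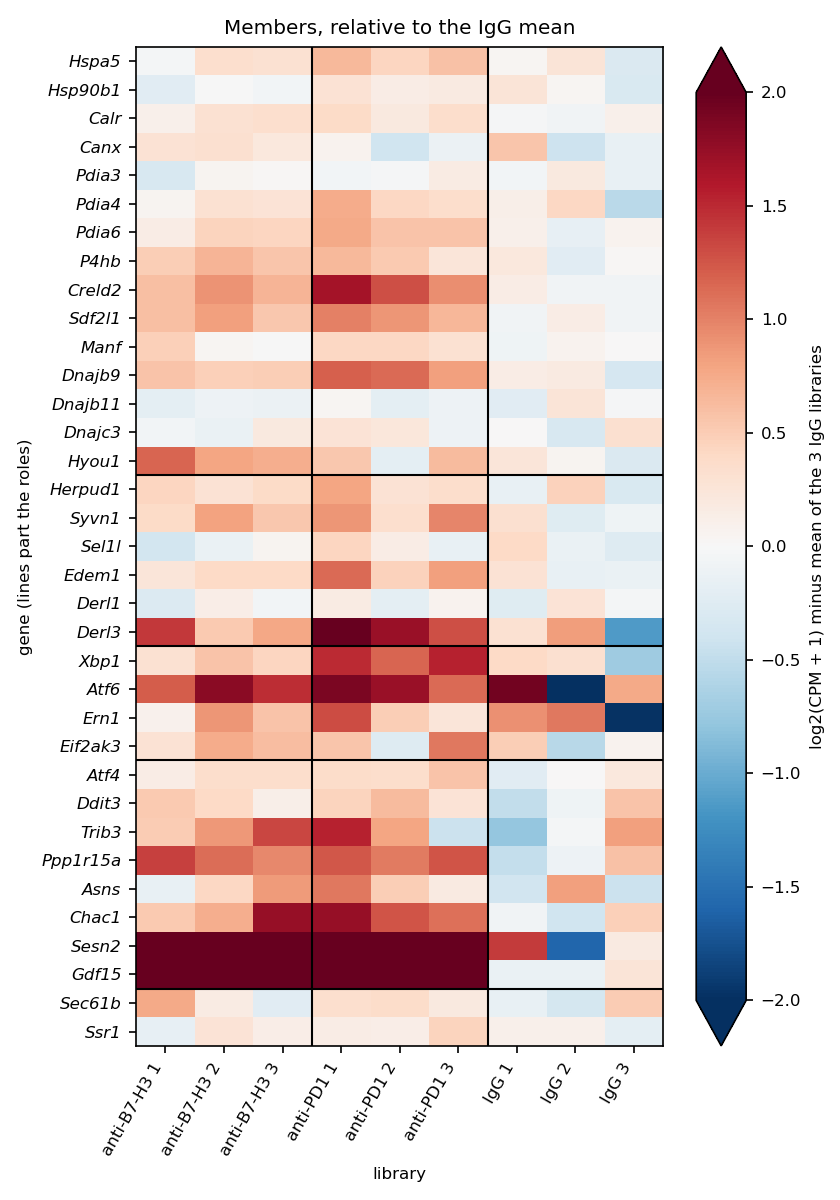
Colour shows log2(CPM + 1) in each of the 9 libraries minus the mean of the 3 IgG libraries, for the 35 genes in rows, with horizontal lines between roles and vertical lines between groups (anti-B7-H3, anti-PD1, IgG). The scale stops at -2 and 2. Creld2, Sdf2l1, Ppp1r15a, Sesn2 and Gdf15 are above the IgG mean in all 6 antibody libraries, as are further genes such as Calr, Pdia6 and P4hb.

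With anti-PD1, 4 of the 35 genes were past the test against IgG, and all 4 were higher: the ER-resident proteins Creld2 and Sdf2l1, the transcription factor Xbp1 and the secreted stress cytokine Gdf15. The test was edgeR's quasi-likelihood test with Benjamini-Hochberg adjustment over all 13178 genes, at 0.05. Of all tested genes, 1.72% were called higher and 0.0152% lower in this comparison. The median log2 fold change of the 35 genes was 0.47, against -0.04 for all tested genes. Of the 35, 33 were positive (Derl1 barely, at 0.00), against 47.2% of all tested genes. In 18 of the 35 all 3 anti-PD1 libraries lay above all 3 IgG libraries, against 9.99% of all tested genes. In 0 of the 35 they lay below, against 6.52% of all. An unadjusted p under 0.05 was reached by 14, against 10.9% of all genes. How many were called rested on single libraries: 1 remained, Creld2, without anti-PD1 replicate 1 or 2, anti-B7-H3 replicate 2 or IgG replicate 1, and 2, Creld2 and Gdf15, without anti-PD1 replicate 3 or anti-B7-H3 replicate 1 or 3. Without IgG replicate 2 Sesn2 was called and Xbp1 was not, and without IgG replicate 3 Ppp1r15a was called and Sdf2l1 was not. DESeq2 called 9, and without both libraries that stood apart 3 remained, Creld2, Sdf2l1 and Gdf15.

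With anti-B7-H3, 0 of the 35 genes passed edgeR's quasi-likelihood test against IgG, where 0.827% of all tested genes were called higher and 0.0228% lower. An unadjusted p under 0.05 was reached by 8 of the 35, against 8.81% of all genes. DESeq2 called 3, Gdf15, Ppp1r15a and Sdf2l1, all higher, and limma-voom with quality weights called 1, Ppp1r15a. Without IgG replicate 3 edgeR called 2, Gdf15 and Ppp1r15a. The median log2 fold change of the 35 was 0.33, against 0.02 for all tested genes. Of the 35, 29 were positive, against 52.1% of all tested genes. In 12 of the 35 all 3 anti-B7-H3 libraries lay above all 3 IgG libraries, against 9.96% of all tested genes. In 0 of the 35 they lay below, against 5.49% of all. Both comparisons use the same IgG libraries, so a low value in IgG enters both.

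**Figure D3:**
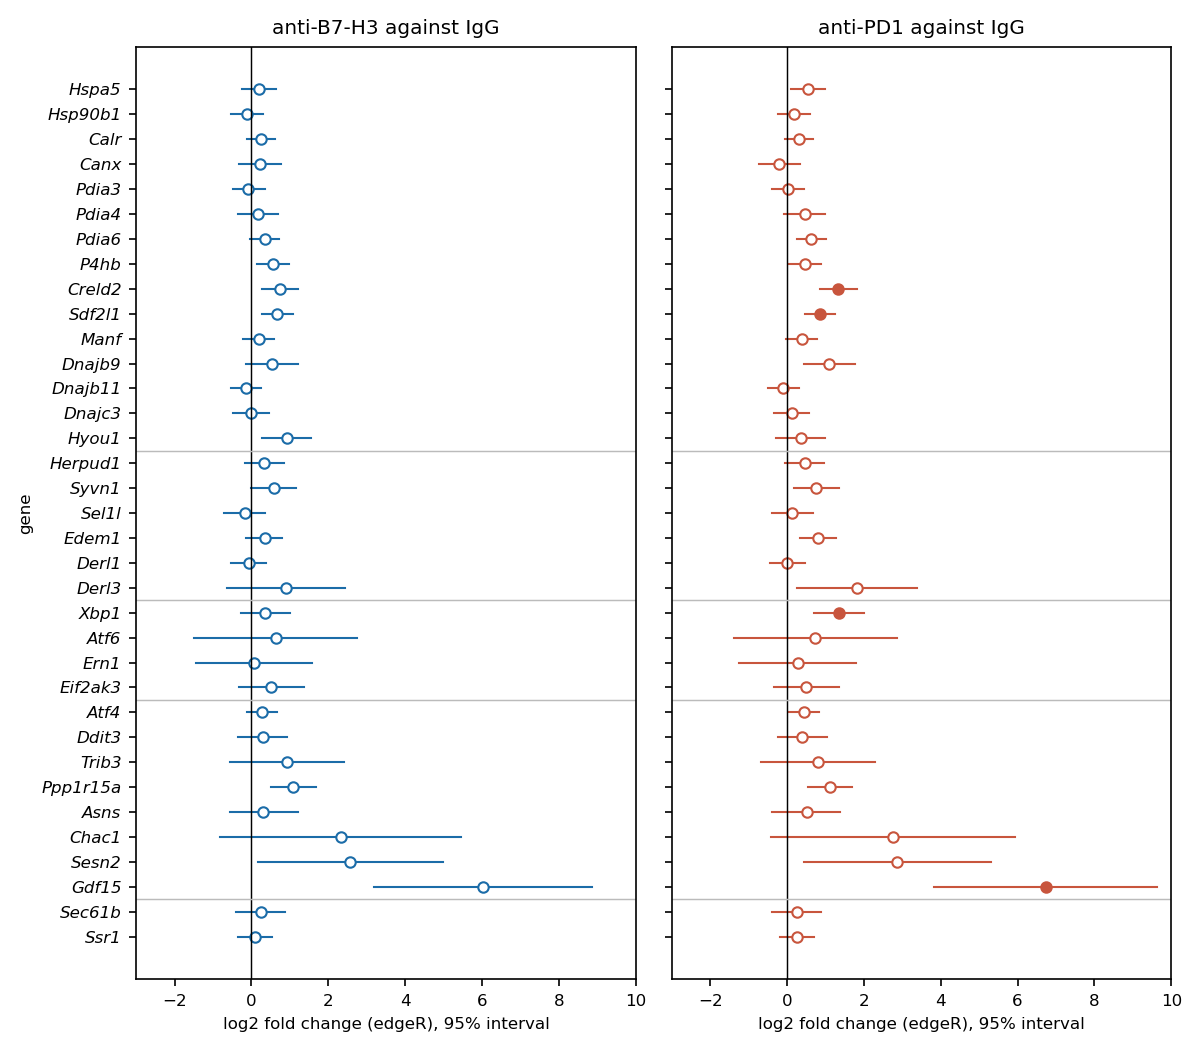
Log2 fold change of each of the 35 genes against IgG (points) with its 95% interval (lines), for anti-B7-H3 on the left and anti-PD1 on the right, from the same edgeR fit. Filled points passed the test: 0 on the left, and Creld2, Sdf2l1, Xbp1 and Gdf15 on the right. Grey lines separate the roles.

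Among the 15 ER chaperones and folding enzymes, 2 rose with anti-PD1, 0 fell and 13 did not pass, with a median log2 fold change of 0.38. With anti-B7-H3 0 of 15 passed, the median was 0.22 and 4 had an unadjusted p under 0.05. Creld2 (ENSMUSG00000023272.4, chr15:88819646-88826683 on GRCm38, + strand) encodes a disulfide isomerase-like protein of the ER lumen. It had 115, 141 and 122 CPM in the anti-B7-H3 libraries, 241, 186 and 145 CPM in the anti-PD1 libraries and 83.8, 71.4 and 71.6 CPM in the IgG libraries. The 3 groups did not overlap, with anti-PD1 highest and IgG lowest. The log2 fold change against IgG was 1.33 ± 0.21 (SE) with anti-PD1 (adjusted p = 0.00992) and 0.74 ± 0.21 with anti-B7-H3 (adjusted p = 0.246). The anti-PD1 call was kept under all 19 alternative settings, with adjusted p between 5.89e-07 and 0.0469.

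Sdf2l1 (ENSMUSG00000022769.9, chr16:17130138-17132383, - strand) encodes a partner of BiP-cycle co-chaperones in the ER. It had 107, 125 and 103 CPM with anti-B7-H3, 142, 130 and 112 CPM with anti-PD1 and 67, 77.6 and 66.8 CPM with IgG. All 6 antibody libraries exceeded all IgG libraries, and the antibody groups overlapped each other. Its log2 fold change was 0.86 ± 0.18 with anti-PD1 (adjusted p = 0.0405) and 0.67 ± 0.18 with anti-B7-H3 (adjusted p = 0.209). The anti-PD1 call was lost on leaving out any single library other than IgG replicate 2, with adjusted p between 0.0583 and 0.191, and was kept in 8 of 19 settings.

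The other chaperones were not called. Hspa5 had 1170, 1520 and 1480 CPM with anti-B7-H3, 1870, 1620 and 1800 CPM with anti-PD1 and 1230, 1430 and 977 CPM with IgG. All anti-PD1 libraries lay above all IgG libraries, while the anti-B7-H3 libraries overlapped them, and the log2 fold changes were 0.54 ± 0.20 with anti-PD1 (adjusted p = 0.333) and 0.20 ± 0.20 with anti-B7-H3 (adjusted p = 0.87). The disulfide isomerase gene Pdia6 had 307, 377 and 374 CPM with anti-B7-H3, 472, 413 and 413 CPM with anti-PD1 and 297, 247 and 293 CPM with IgG. Neither antibody group overlapped IgG, and the anti-PD1 fold change was 0.63 ± 0.17 on the log2 scale (adjusted p = 0.122). Dnajb9, a BiP co-chaperone that restrains IRE1, had 16.7, 15.6 and 15.8 CPM with anti-B7-H3, 26.2, 25.1 and 20 CPM with anti-PD1 and 12.2, 12.5 and 8.46 CPM with IgG. The order of the 3 groups was that of Creld2, without overlap, and the anti-PD1 log2 fold change was 1.10 ± 0.30 (adjusted p = 0.126). DESeq2 called both Pdia6 and Dnajb9 with anti-PD1.

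Hyou1, a large ER chaperone that exchanges nucleotide on BiP, departed from that order. It had 56, 42.8 and 41.2 CPM with anti-B7-H3, 35.9, 21.2 and 38.3 CPM with anti-PD1 and 29.1, 25.3 and 19.8 CPM with IgG. The anti-B7-H3 libraries were above all others, and the anti-PD1 and IgG libraries overlapped. Its log2 fold change was 0.92 ± 0.29 with anti-B7-H3 (adjusted p = 0.331) and 0.36 ± 0.29 with anti-PD1 (adjusted p = 0.737). P4hb, another disulfide isomerase gene, was above IgG in all 6 antibody libraries, at 0.57 ± 0.19 with anti-B7-H3 (adjusted p = 0.354) and 0.47 ± 0.19 with anti-PD1 (adjusted p = 0.38). The 8 chaperone genes Hsp90b1, Calr, Canx, Pdia3, Pdia4, Manf, Dnajb11 and Dnajc3 had log2 fold changes of -0.15 to 0.25 under anti-B7-H3 and -0.20 to 0.46 under anti-PD1. Hsp90b1 and Manf share 17.2% and 13% of their coding bases with a gene on the opposite strand, whose reads cannot be told apart in libraries that do not mark the strand.

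ER-associated degradation returns misfolded proteins to the cytosol for the proteasome. None of its 6 genes passed the test in either comparison. The median log2 fold change was 0.33 under anti-B7-H3 and 0.61 under anti-PD1, and 3 genes had an unadjusted p under 0.05 with anti-PD1 and 1 with anti-B7-H3. Edem1, a mannosidase-like lectin that hands glycoproteins to the pathway, had 237, 266 and 267 CPM with anti-B7-H3, 441, 277 and 355 CPM with anti-PD1 and 246, 181 and 183 CPM with IgG. The anti-PD1 libraries lay above the other 6, at a log2 fold change of 0.81 ± 0.21 (adjusted p = 0.103; 0.34 ± 0.21 and adjusted p = 0.743 with anti-B7-H3). The E3 ubiquitin ligase gene Syvn1 had 39, 52.9 and 43.7 CPM with anti-B7-H3, 56.1, 37.8 and 59.7 CPM with anti-PD1 and 37.7, 25.2 and 27.9 CPM with IgG. The groups stayed clear of IgG by a narrow margin, 37.8 against 37.7 CPM, and the log2 fold changes were 0.58 ± 0.26 with anti-B7-H3 (adjusted p = 0.565) and 0.76 ± 0.26 with anti-PD1 (adjusted p = 0.28).

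Derl3, a channel component of the pathway, was lower in abundance, with 9.05, 4.45 and 5.49 CPM with anti-B7-H3, 16, 11.5 and 8.23 CPM with anti-PD1 and 3.66, 5.76 and 0.726 CPM with IgG. The anti-PD1 libraries were above all IgG libraries and the anti-B7-H3 libraries overlapped both other groups. On the log2 scale the fold change was 1.82 ± 0.71 with anti-PD1 (adjusted p = 0.373) and 0.90 ± 0.70 with anti-B7-H3 (adjusted p = 0.82). DESeq2 called Edem1 with anti-PD1. Herpud1, Sel1l and Derl1 ranged from -0.17 to 0.33 under anti-B7-H3 and from 0.00 to 0.46 under anti-PD1.

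Xbp1 was the only one of the 4 sensor and XBP1 genes past the test, higher with anti-PD1. Xbp1 (ENSMUSG00000020484.18, chr11:5520659-5525893, + strand) had 40.5, 49.1 and 44.3 CPM with anti-B7-H3, 94, 74.6 and 96.8 CPM with anti-PD1 and 43.3, 41.1 and 19.6 CPM with IgG. The anti-PD1 libraries lay above all other 6, and the anti-B7-H3 and IgG libraries overlapped. The log2 fold change was 1.35 ± 0.29 with anti-PD1 (adjusted p = 0.0468) and 0.36 ± 0.29 with anti-B7-H3 (adjusted p = 0.825). The anti-PD1 call was lost on leaving out any single library other than IgG replicate 3, where adjusted p was 0.0488, and over the 9 such fits it reached 0.169. Without both libraries that stood apart the value was 1.42 (adjusted p = 0.126). The 3 listed Xbp1 transcripts had coding lengths of 804, 645 and 384 nt, and splicing by IRE1 was not analysed here.

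The 3 sensor genes themselves were not called and had wide spreads. Ern1 had 12.3, 22 and 17.5 CPM with anti-B7-H3, 29.8, 16.6 and 13.7 CPM with anti-PD1 and 22.5, 25 and 2.18 CPM with IgG. Atf6 had 27.8, 42.6 and 33.6 CPM with anti-B7-H3, 45.1, 40.3 and 26.2 CPM with anti-PD1 and 46.3, 0.928 and 20.1 CPM with IgG. In both genes the groups overlapped, and 1 IgG library was far below the other 8, replicate 3 for Ern1 and replicate 2 for Atf6. Eif2ak3, of which 14.4% of the coding bases overlap a gene on the opposite strand, had 26.9, 36.9 and 34 CPM with anti-B7-H3, 32.4, 18.1 and 46.1 CPM with anti-PD1 and 31, 14.5 and 22.8 CPM with IgG, again overlapping. The log2 fold change of Ern1 was 0.06 ± 0.69 under anti-B7-H3 and 0.28 ± 0.69 under anti-PD1, and without IgG replicate 3 it was -0.46 and -0.24. For Atf6 it was 0.63 ± 0.93 under anti-B7-H3 and 0.73 ± 0.93 under anti-PD1. For Eif2ak3 it was 0.52 ± 0.38 under anti-B7-H3 and 0.50 ± 0.38 under anti-PD1, and the anti-PD1 value was -0.09 without both libraries that stood apart. The adjusted p of the 3 genes ran from 0.72 to 0.993.

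**Figure D4:**
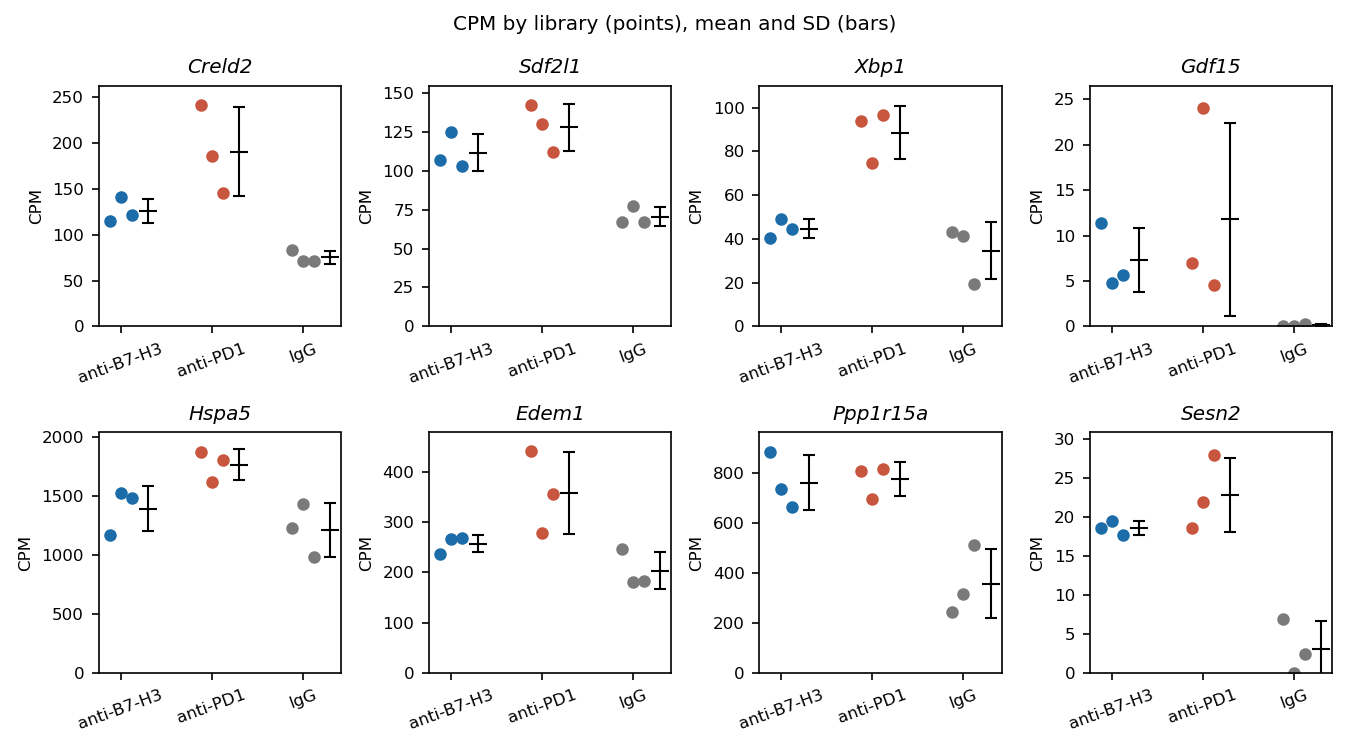
CPM in each library (points, coloured by group) with the group mean and SD (black bars; n = 3 each, bars cut at 0) for 8 of the 35 genes, each on its own linear axis from 0. In Creld2, Sdf2l1, Gdf15, Ppp1r15a and Sesn2 all antibody libraries lie above all IgG libraries, while in Xbp1 and Edem1 the anti-PD1 libraries do so and the anti-B7-H3 libraries overlap IgG.

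The summed plasma cell markers were also highest with anti-PD1. The 11 markers, Jchain and Mzb1 among them, summed to 543 to 798 CPM with anti-B7-H3, 1140 to 1490 CPM with anti-PD1 and 234 to 539 CPM with IgG. Of them, Fcrl5 was at 0 in anti-PD1 replicate 3 and IgG replicates 1 and 3, and Tnfrsf17 in IgG replicate 3. Much of each sum was Jchain alone, with 286 to 483 CPM with anti-B7-H3, 740 to 1010 CPM with anti-PD1 and 96.6 to 357 CPM with IgG. With anti-PD1, log2 fold changes of the 11 ran from -0.08 for Fcrl5 to 2.43 for Mzb1, and 10 were positive. Tnfrsf13b was at 0.05. Jchain and Irf4 of the 11 passed edgeR's test with anti-PD1 (adjusted p = 0.0453 and 0.0307), and 0 of 11 did with anti-B7-H3, where 3 had an unadjusted p under 0.05. IgG replicate 3, the library lowest in Xbp1 and in Derl3, was also lowest in the summed plasma cell markers. Their part in the result was not tested.

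In the integrated stress response, 1 of 8 genes passed the test, Gdf15 with anti-PD1, and all 8 had a positive fold change in both comparisons. The median log2 fold change was 1.00 under anti-B7-H3 and 0.96 under anti-PD1, the highest of the 5 roles in each. Of the 8, Gdf15, Chac1, Sesn2 and Trib3 were low in IgG and had standard errors of 0.67 to 1.44. Of the more abundant genes, Atf4, Ddit3 and Asns lay at 0.27 to 0.51, and Ppp1r15a at 1.09 and 1.12. Gdf15 (ENSMUSG00000038508.7, chr8:70629393-70632456, - strand) encodes a cytokine of the TGF-β superfamily that many stressed cells release. It had 11.4, 4.82 and 5.70 CPM with anti-B7-H3, 6.94, 24 and 4.51 CPM with anti-PD1 and 0, 0 and 0.311 CPM with IgG. It was thus detected in all 6 antibody libraries and, among IgG libraries, in replicate 3 alone, by 6 counts. In estimated counts this was 153, 143 and 185 with anti-B7-H3, 202, 648 and 108 counts with anti-PD1 and 0, 0 and 6 with IgG. Anti-PD1 replicate 2 held most of the counts of its group. The log2 fold change was 6.73 ± 1.32 with anti-PD1 (adjusted p = 0.0283) and 6.03 ± 1.29 with anti-B7-H3 (adjusted p = 0.0686). The anti-PD1 call was lost without anti-PD1 replicate 1 (0.0647) or 2 (0.149), anti-B7-H3 replicate 2 (0.0503) or IgG replicate 1 (0.0642), by limma-voom (0.33) and with only the 6 libraries compared (0.0953). Without IgG replicate 3, where IgG is at 0 throughout, the fitted value was 11.15.

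Ppp1r15a, which encodes GADD34, the phosphatase subunit that reverses eIF2α phosphorylation, had 881, 736 and 663 CPM with anti-B7-H3, 808, 696 and 816 CPM with anti-PD1 and 243, 316 and 510 CPM with IgG. All antibody libraries were above all IgG libraries, and the antibody groups overlapped. The log2 fold change was 1.09 ± 0.26 with anti-B7-H3 (adjusted p = 0.125) and 1.12 ± 0.26 with anti-PD1 (adjusted p = 0.0662), short of the threshold in both; DESeq2 called it in both, as did edgeR without IgG replicate 3. Sesn2, a sestrin that restrains mTORC1, had 18.6, 19.5 and 17.7 CPM with anti-B7-H3, 18.6, 22 and 28 CPM with anti-PD1 and 6.92, 0 and 2.39 CPM with IgG. No antibody library fell below 17.7 CPM and no IgG library exceeded 6.92 CPM, but with a 0 in IgG replicate 2 the standard errors were wide: 2.57 ± 1.07 with anti-B7-H3 (adjusted p = 0.534) and 2.87 ± 1.09 with anti-PD1 (adjusted p = 0.363). DESeq2 called Sesn2 with anti-PD1 (adjusted p = 0.0329), as did edgeR without IgG replicate 2 (0.0357).

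Atf4, whose protein is the transcription factor at the centre of the response and is regulated mainly in translation, had 227, 262 and 263 CPM with anti-B7-H3, 267, 264 and 307 CPM with anti-PD1 and 176, 207 and 239 CPM with IgG. The anti-PD1 libraries were above all IgG libraries and the anti-B7-H3 libraries overlapped them, at log2 fold changes of 0.43 ± 0.18 (adjusted p = 0.403) and 0.27 ± 0.18 (adjusted p = 0.749). Chac1, a glutathione-degrading enzyme gene, was near the floor in IgG, with 0.891, 1.18 and 3.42 CPM with anti-B7-H3, 3.43, 2.15 and 1.84 CPM with anti-PD1 and 0.251, 0 and 0.83 CPM with IgG. The groups did not overlap IgG, but for anti-B7-H3 the margin was narrow, 0.891 against 0.83 CPM. Those values rest on 12 estimated counts in anti-B7-H3 replicate 1 and 16 in IgG replicate 3. The fold changes carried standard errors of 1.42 and 1.44 and adjusted p of 0.727 under anti-B7-H3 and 0.535 under anti-PD1. Ddit3, the gene of the pro-apoptotic factor CHOP, had 52.5, 48.1 and 39.2 CPM with anti-B7-H3, 49.7, 56.4 and 44.1 CPM with anti-PD1 and 25.5, 34 and 54.5 CPM with IgG. Its groups overlapped, at 0.29 ± 0.29 under anti-B7-H3 and 0.40 ± 0.29 under anti-PD1. The pseudokinase gene Trib3 and the asparagine synthetase gene Asns overlapped IgG too, with log2 fold changes of 0.31 to 0.92 over both comparisons.

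Summed immediate-early genes and summed macrophage markers were also higher in every antibody library than in any IgG library. The list of 10 dissociation and immediate-early genes summed to 27600 to 29900 CPM with anti-B7-H3, 31100 to 40500 CPM with anti-PD1 and 10900 to 20000 CPM with IgG. Of the 10, 3 were past the test under anti-B7-H3 and 4 under anti-PD1, all higher: Fos and Nr4a1 in both, Jun with anti-B7-H3 and Junb and Dusp1 with anti-PD1. The heat-shock genes Hspa1a and Hspa1b, neither past the test, made up 58.8 to 76.3% of that sum in each library. The other 8 genes summed to 9400 to 10200 CPM with anti-B7-H3, 9610 to 11700 CPM with anti-PD1 and 4330 to 5180 CPM with IgG. IgG replicate 3 had the highest such sums of the IgG libraries and also the highest Ppp1r15a, Atf4, Ddit3, Trib3, Chac1 and Gdf15 of them. The rest of the integrated stress response genes did not follow. Asns was lowest in IgG replicate 3, at 25.5 CPM, and Sesn2 was at 2.39 CPM there against 6.92 CPM in IgG replicate 1. The 12 macrophage markers, C1qa and Adgre1 among them, summed to 1760 to 2720 CPM with anti-B7-H3, 1300 to 1930 CPM with anti-PD1 and 123 to 315 CPM with IgG, and 8 of 12 were called higher in each comparison. Neutrophil markers summed to 281 to 496 CPM with anti-B7-H3, 676 to 959 CPM with anti-PD1 and 90.1 to 125 CPM with IgG, and 3 and 4 of 9 tested were called higher. T cell markers summed to 4730 to 6740 CPM with anti-B7-H3, 4980 to 6120 CPM with anti-PD1 and 6010 to 8060 CPM with IgG, with 0 of 12 past edgeR's test, at 3 and 1 with an unadjusted p under 0.05. The part of these cells and genes in the results was not tested.

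**Figure D5:**
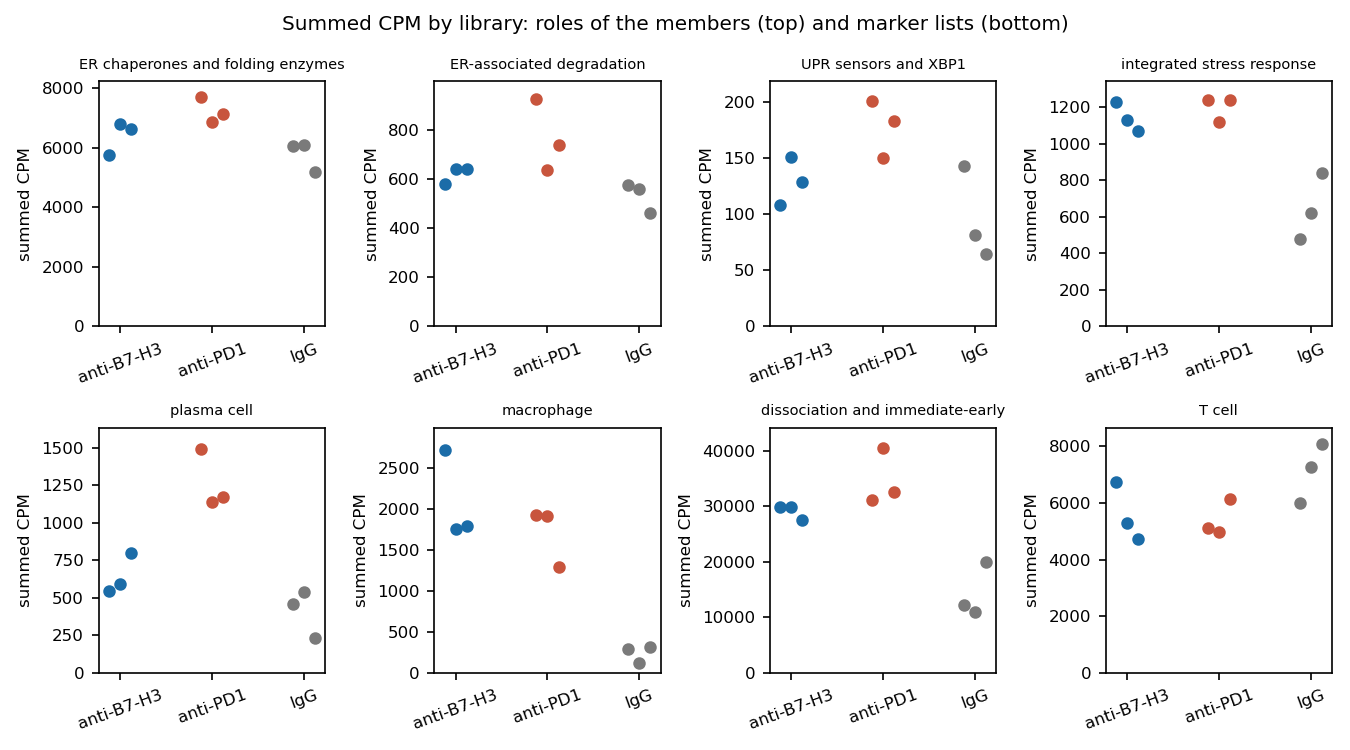
Summed CPM in each library (points, coloured by group) for 4 roles of the 35 genes (top row) and 4 marker lists (bottom row), each on a linear axis from 0. Integrated stress response genes sum to 1070 to 1240 CPM in the antibody libraries and 481 to 841 CPM in the IgG libraries. Much of each sum is Ppp1r15a alone, which did not pass the test. It had 663 to 881 CPM in the antibody libraries and 243 to 510 CPM in the IgG libraries. Plasma cell markers are highest with anti-PD1, and macrophage markers are above IgG with both antibodies.

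The 2 translocon genes, which serve entry of proteins into the ER, were not called. Sec61b had 184, 122 and 92.3 CPM with anti-B7-H3, 138, 141 and 124 CPM with anti-PD1 and 97.9, 84.6 and 155 CPM with IgG. Ssr1, of the translocon-associated protein complex, had 71.1, 95.9 and 87.1 CPM with anti-B7-H3, 87.7, 87.2 and 109 CPM with anti-PD1 and 85.2, 84.9 and 69.2 CPM with IgG. Only Ssr1 with anti-PD1 was clear of IgG, and all 4 log2 fold changes were between 0.09 and 0.25.

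Between anti-B7-H3 and anti-PD1, 0 of the 35 genes passed edgeR's quasi-likelihood test, as did 0% of all tested genes. An unadjusted p under 0.05 was reached by 3 of the 35, Xbp1, Creld2 and Edem1, against 3.23% of all genes, and DESeq2 and limma-voom also called 0 of the 35. Xbp1 had a log2 difference, anti-B7-H3 over anti-PD1, of -0.99 (95% interval -1.63 to -0.34; adjusted p = 1). Creld2 had -0.60 (-1.06 to -0.13) and Edem1 -0.48 (-0.94 to -0.01). The median over the 35 was -0.18, against 0.04 for all genes. Groups did not overlap in 9 of the 35 with anti-B7-H3 lower, against 6.4% of all genes. They did not overlap in 2 with anti-B7-H3 higher, Canx and Hyou1, against 7.13% of all genes. For Gdf15 and Ppp1r15a the differences were -0.70 (-2.87 to 1.48) and -0.03 (-0.60 to 0.55), intervals that leave room for either direction.

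Genes with an ERSE match, whose sites are printed above, were set beside those without. With anti-PD1 the 9 ERSE carriers had a median log2 fold change of 0.54 and 1 called gene, Creld2, and the 22 others with a window had a median of 0.48 and 3 called genes. Of all tested genes, 1.72% were called higher. Groups lay above IgG without overlap in 6 of the 9 and in 11 of the 22, against 9.99% of all tested genes. With anti-B7-H3 the medians were 0.25 and 0.34. Groups lay above IgG in 4 of 9 and 7 of 22, against 9.96% of all tested genes. The carriers' fold changes with anti-PD1 ran from -0.20 for Canx to 1.82 for Derl3. The 4 CARE carriers had a median of 0.62 under anti-B7-H3 and 0.66 under anti-PD1, and 0 were called by edgeR.

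Further genes of the same pathways were read from 6 lists chosen by role. Of 13 other genes around eIF2α kinases, phosphatases and ATF4 partners, 2 rose under anti-B7-H3 and 3 under anti-PD1, and 0 fell. Of all tested genes, 0.827% were called higher under anti-B7-H3 and 1.72% under anti-PD1. Atf3, an immediate stress-induced transcription factor, had 116, 92.1 and 116 CPM with anti-B7-H3, 123, 148 and 138 CPM with anti-PD1 and 15.2, 8.17 and 13.5 CPM with IgG. That is a log2 fold change of 3.13 ± 0.26 with anti-B7-H3 (adjusted p = 0.00104) and 3.46 ± 0.27 with anti-PD1 (adjusted p = 0.00037), far outside the spread within groups. Cebpb, a bZIP factor that pairs with ATF4 and is abundant in myeloid cells, had 741, 464 and 424 CPM with anti-B7-H3, 683, 780 and 959 CPM with anti-PD1 and 124, 91.4 and 135 CPM with IgG. Its log2 fold changes were 2.22 ± 0.27 (adjusted p = 0.00383) and 2.79 ± 0.27. Nupr1, a small stress-induced nuclear protein gene, rose by 2.59 ± 0.57 with anti-PD1 (adjusted p = 0.0497). It was low, with 14.5, 14.3 and 5.56 CPM with anti-PD1 and 1.35, 1.61 and 2.75 CPM with IgG. The Nupr1 call lay just within the threshold and was not examined under other settings.

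Of 18 tested genes of amino acid supply that ATF4 is known to drive, Slc3a2, the heavy chain of amino acid exchangers, rose with anti-PD1 by 0.86 ± 0.18 (adjusted p = 0.0377). Of 16 other folding, oxidation and glycan quality control genes, Fkbp11, an ER prolyl isomerase gene, rose with anti-PD1 by 3.18 ± 0.70 (adjusted p = 0.0493). It had 24.2, 23.1 and 10.7 CPM with anti-PD1 and, low in IgG, 4.21, 1.3 and 0.882 CPM. That call lay just within the threshold and was not examined under other settings. Of all tested genes, 1.72% were called higher with anti-PD1. With anti-B7-H3, edgeR called 0 of either list, at 5 and 2 genes with an unadjusted p under 0.05. In the 11 other tested genes of ER-associated degradation, the 14 other translocon and signal peptide genes and the 9 other regulators, edgeR called 0 in either comparison. Unadjusted p under 0.05 was reached by 0, 1 and 0 of them with anti-B7-H3 and by 0, 1 and 1 with anti-PD1. Their median log2 fold changes lay between -0.05 and 0.09.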

How the data were processed

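Each library's file holds, per the file headers, a deposited estimated count and a deposited TPM value (abundance scaled by effective length) for 58083 transcripts. Per the submitters' processing notes, FastQC 0.11.8 was used and the build was GRCm38; the quantifier is not given in the sources used here. RNA was amplified with SMART-Seq v4, depleted of ribosomal RNA and made into Nextera XT libraries, per the labels' protocols. Neither kit marks the strand. Of the listed lengths 87.3% are multiples of 3, so they are coding lengths.

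Estimated counts were summed per gene with GENCODE M21 (57409 transcripts matched, 674 did not) and rounded. TPM was summed per gene and used for levels only. Counts of 9 libraries in 3 groups entered 1 edgeR 4.0.16 fit (R 4.3.3): TMM factors, filterByExpr by group, group means, robust quasi-likelihood dispersions, and a Benjamini-Hochberg threshold of 0.05 over 13178 genes. CPM values use TMM-scaled library sizes. Intervals of fold changes come from the fit and include the spread between libraries. Floors cover counting error only, since PCR copies were counted without molecular identifiers. Alternatives were DESeq2 1.42.0, limma-voom (limma 3.58.1), other factors and filters, only the 6 libraries compared, a replicate block and each library left out.

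The members and lists were chosen with earlier results of these data known. Values in every library and full statistics are given for members past the test and, in each role, for up to 3 further members with the smallest p against IgG; Hspa5, P4hb, Chac1 and Ddit3 were added with their values known. The model was also run on counts simulated with its own fitted dispersions. No simulated library stood apart, so that run cannot show how the model deals with such libraries. Where the symbol Ddit3 named a pair of gene models, the one with more counts was used.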

Additional observations from a re-analysis of the deposited data

How the results depend on the processing

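The number of genes called over the whole table moved most with the tool. For anti-B7-H3 against IgG it was 112 as reported, 395 by DESeq2, 44 with only the 6 libraries compared, 64 with the replicate block and 59 to 144 with 1 library left out. For anti-PD1 against IgG it was 229, 652 by DESeq2, 136 with 6 libraries, 127 with the block and 113 to 262 with 1 library left out. For anti-B7-H3 against anti-PD1 it was 0, 14 by DESeq2, 2 by limma-voom and 0 to 1 with 1 library left out.

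Among the 35 genes, calls for anti-B7-H3 against IgG numbered 0 as reported, 3 by DESeq2, 1 by limma-voom, 2 with no filter on low counts and 0 to 2 with 1 library left out. For anti-PD1 against IgG they numbered 4, 9 by DESeq2, 1 with 6 libraries, 1 with the replicate block and 1 to 4 with 1 library left out. Gdf15 with anti-PD1 kept its call in 12 of 19 settings and lost it with the block (adjusted p = 0.116). The cause of these shifts was not tested. By construction, the 6-library and block fits and those with 1 library left out have fewer residual degrees of freedom. The median for anti-B7-H3 against IgG was 0.44 by limma-voom, against 0.33 as reported. Leaving out IgG replicate 1 or 3 put the median of all genes at 0.11 in that comparison, and no filter put it at 0.16.

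With 1 library left out, named genes that changed sign for anti-B7-H3 against IgG ran from -0.46 (without IgG replicate 3) to 0.50 for Ern1, from -0.01 (without IgG replicate 3) to 0.20 for Ssr1 and from -0.07 (without anti-B7-H3 replicate 1) to 0.54 for Sec61b. For anti-PD1 against IgG, Ern1 ran from -0.24 (without IgG replicate 3) to 0.72. Eif2ak3 was -0.09 in that comparison without IgG replicate 2 and anti-PD1 replicate 3. Over all 35 genes, 22 of 664 values changed sign for anti-B7-H3 against IgG, 15 of 664 for anti-PD1 against IgG and 32 of 664 for anti-B7-H3 against anti-PD1.

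Correlations over genes between same-numbered libraries of different groups ran from -0.12 to 0.156. Between differently numbered ones they ran from -0.145 to 0.123. The labels do not say what the numbers mark, and correlations this low cannot exclude that they pair the libraries. With 3 libraries a group, and genes such as Gdf15 and Chac1 near the floor in IgG, changes of low genes were measured with wide intervals.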

Other observations

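Several further ER genes lay just short of the threshold with anti-PD1 and were singled out after their values were seen. Ero1l, the oxidase that recharges disulfide isomerases, had 124, 245 and 214 CPM with anti-B7-H3, 410, 230 and 314 CPM with anti-PD1 and 182, 119 and 119 CPM with IgG, a log2 fold change with anti-PD1 of 1.18 ± 0.30 (edgeR adjusted p = 0.0969). Txndc5, an ER thioredoxin-like protein gene, had 98.9, 101 and 101 CPM with anti-B7-H3, 195, 127 and 111 CPM with anti-PD1 and 88.5, 44.1 and 54.1 CPM with IgG, at 1.21 ± 0.29 with anti-PD1 (adjusted p = 0.0683). In both genes all anti-PD1 libraries lay above all IgG libraries. Mbtps1, the protease that makes the first cut in ATF6, went the other way, with 94.2, 101 and 84.5 CPM with anti-B7-H3, 70.9, 71.6 and 49.1 CPM with anti-PD1 and 126, 106 and 108 CPM with IgG. All its anti-PD1 libraries lay below the other 6, at a log2 fold change against IgG of -0.83 ± 0.20 (adjusted p = 0.0812).

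The quantifier's split of counts between transcripts is an estimate and is given without a test. The longer listed form of Atf4 took 94.0 to 96.3% of the gene's counts with anti-B7-H3, 94.4 to 95.9% with anti-PD1 and 90.0 to 98.5% with IgG. The short Ddit3 transcript belongs to the other gene model of that symbol and is not part of the Ddit3 values given above. Of the counts of both models together it took 5.82 to 9.60% with anti-B7-H3, 7.22 to 9.82% with anti-PD1 and 6.76 to 7.58% with IgG.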
